A study of Mus musculus with 12 samples.

Results

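Resident Kupffer cell genes are 10 mouse genes (Clec4f, Vsig4, Timd4, Marco, Cd163, Cd5l, Folr2, Adgre1, Csf1r and Mrc1). They were chosen by symbol, with earlier results of these data known. All 10 were found among the 55291 genes of the count table, and all 10 had counts high enough to be tested. They were followed in liver RNA from male C57BL/6 mice, an inbred laboratory strain, in 12 libraries that fall into 4 groups of 3. HFD+RE and HFD+AE mice ate the high-fat diet D12492 and were also exercised, HFD mice ate that diet without exercise, and NC mice were the normal-diet controls. Mice were 6 weeks old at the start and adapted for 1 week, the high-fat diet ran for 8 weeks before the exercise groups were split off, and exercise lasted at least 12 weeks. AE and RE are abbreviations that the labels leave unexplained. Libraries keep the numbers of their labels, which are HFD+RE 3, 4 and 5, HFD+AE 1, 2 and 3, HFD 1, 2 and 3, and NC 2, 4 and 5. No source used here states that each library is a different animal; p-values therefore cover the spread between these libraries alone, and that spread may be technical.

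Kupffer cells are the resident macrophages of the liver. They sit in the sinusoids, where they clear bacteria, aged red cells and dying cells from portal blood, and they renew mostly by division. Their identity is held by factors such as PU.1, SPIC and the liver X receptor, and by signals from neighbouring endothelial, stellate and hepatocyte cells. When resident cells are lost, as in diet-induced liver disease, monocyte-derived macrophages can take their place.

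The genes differ in role. Cd163 encodes the scavenger receptor for haptoglobin-haemoglobin complexes, Marco and Mrc1 encode a class A scavenger receptor and the mannose receptor, and Cd5l encodes a secreted protein of macrophages. Clec4f encodes a lectin that in mice is largely restricted to Kupffer cells, Vsig4 a complement receptor, and Timd4 a receptor for phosphatidylserine on dying cells. Folr2 encodes folate receptor beta, Csf1r the receptor for the growth factors CSF1 and IL-34, and Adgre1 the F4/80 antigen. Mrc1 is also expressed by sinusoidal endothelial cells, and Csf1r, Adgre1 and Marco by other macrophages or monocytes.

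RefSeq promoter sequences of the GRCm38.p6 build, each reaching from 250 bases before to 50 bases after the gene start, were found for 8 of the 10 genes, all except Adgre1 and Csf1r. Cd163, Clec4f and Marco are printed because Cd163 fell with the diet, Clec4f is the gene most restricted to Kupffer cells, and Marco had a positive change where the other genes had negative ones. Capitals mark matches, on either strand, to GAGGAA (a core of PU.1 and SPIC sites), TGGGAA (a core of RBPJ sites) and AGGTCA (a core of nuclear receptor sites). The Cd163 window is chr6:124304401-124304700 on the plus strand, the Clec4f window chr6:83656067-83656366 on the minus strand and the Marco window chr1:120504975-120505274 on the minus strand.
Cd163: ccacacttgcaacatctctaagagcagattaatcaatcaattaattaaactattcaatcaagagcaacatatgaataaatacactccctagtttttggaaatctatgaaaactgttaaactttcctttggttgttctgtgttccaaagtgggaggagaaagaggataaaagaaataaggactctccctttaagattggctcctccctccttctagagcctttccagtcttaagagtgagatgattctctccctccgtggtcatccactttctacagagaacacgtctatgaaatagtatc
Clec4f: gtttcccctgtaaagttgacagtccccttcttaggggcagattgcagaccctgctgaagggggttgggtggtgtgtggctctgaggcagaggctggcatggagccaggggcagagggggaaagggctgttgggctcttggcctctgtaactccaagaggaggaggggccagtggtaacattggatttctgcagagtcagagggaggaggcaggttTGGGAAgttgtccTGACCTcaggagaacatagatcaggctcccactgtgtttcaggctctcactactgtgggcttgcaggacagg
Marco: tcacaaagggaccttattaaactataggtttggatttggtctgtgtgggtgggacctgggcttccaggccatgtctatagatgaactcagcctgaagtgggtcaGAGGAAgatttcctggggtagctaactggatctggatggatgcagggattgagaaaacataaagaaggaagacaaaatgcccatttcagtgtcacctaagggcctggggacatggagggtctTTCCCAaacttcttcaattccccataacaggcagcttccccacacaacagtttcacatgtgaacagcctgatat
GAGGAA was present in 28.28% of 32851 promoter windows of the same length and in 4 of the 8 windows of the resident Kupffer cell genes (Vsig4, Marco, Cd5l and Mrc1). TGGGAA, at 25.56% of all windows, matched in Clec4f and Marco, and AGGTCA, at 16.26%, matched in Clec4f and Timd4. The Cd163 window held none of the 3. A match is a run of letters and not a measured site, and no search was made outside these windows. No binding, accessibility or methylation data were used here.

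Total counts ran from 44373214 to 77665729 per library. The hepatocyte gene Alb took the largest share of the counts in all 12 libraries, 4.25% to 9.82%. Levels are given as CPM, counts relative to the scaled library total, and as RPKM, the same per kilobase of gene, where genes are compared with each other. The first principal component held 40.6% of the variance. On it HFD+AE 3 stood apart from HFD+AE 1 and 2, and HFD+RE 3 from HFD+RE 4 and 5. HFD 2 also stood apart, at -23.0 against -67.4 and -80.8 in HFD 1 and 3. Results below are therefore also given without HFD+AE 3 and HFD+RE 3 together where that changes a call. Results without HFD 2 are given as well where it moved a call or a change.

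Per length, Clec4f and Cd5l were the highest of the 10 genes in each of the 4 groups. In NC livers they averaged 39.2 ± 9.57 and 38.7 ± 11.4 RPKM (SD, n = 3), with overlapping ranges. Vsig4 followed at 19.4 ± 3.42, apart from both neighbours in the order. Csf1r, Mrc1, Cd163, Adgre1 and Marco came next at averages between 9.47 and 3.18, each overlapping its neighbour. Timd4 averaged 2.88 ± 0.72 and Folr2 1.36 ± 0.65, and the ranges of those 2 genes did not overlap. In HFD livers Cd163 had rank 9 at 1.29 ± 0.51 and Marco rank 4 at 6.57 ± 5.36, against ranks 6 and 8 in NC livers. Folr2 was last in all 4 groups.

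The first comparison asks how the high-fat diet alone moved these genes. Cd163 and Folr2 fell in HFD livers relative to NC livers, and the other 8 genes did not pass the test. A gene passed at a Benjamini-Hochberg adjusted p below 0.05 over the 18305 genes tested, by edgeR's quasi-likelihood F-test. That threshold called 15.6% of all tested genes, 7.19% in the falling direction, and the count of 2 of 10 is no more than a description beside those shares. Of the log2 changes, 9 of 10 were negative, with a median of -1.31, against a median of 0.01 for all genes. In 6 of the 10 genes every HFD library lay below every NC library, against 22.1% of all genes. In bulk tissue, fewer cells of a type and less RNA per cell cannot be told apart.

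Cd163 read 5.27, 10.2 and 5.54 CPM in HFD 1, 2 and 3, against 47.6, 41.3 and 31.8 CPM in NC 2, 4 and 5. The groups did not overlap, and the highest HFD library lay well below the lowest NC library. The mean of 7.02 ± 2.80 CPM in HFD livers was set against 40.2 ± 7.97 CPM in NC livers (SD, n = 3 each), a log2 change of -2.52 (SE 0.55, adjusted p = 0.0141). The gene lies at chr6:124304656-124330527 on the plus strand of mm10.

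Folr2 (chr7:101839988-101857194, minus strand) was counted in few reads, 8, 29 and 11 in HFD 1, 2 and 3, against 170, 92 and 87 in NC 2, 4 and 5. Its 801 reads over all libraries make it the shallowest of the 10 genes. The levels were 0.319 ± 0.28 CPM in HFD livers and 2.10 ± 1.01 CPM in NC livers (SD, n = 3 each), without overlap, a log2 change of -2.75 (SE 0.76, adjusted p = 0.0322). Of its annotated length, 63.1% is shared with Gm10602 on the opposite strand, and since the strand setting of the counting is not given, reads from the 2 genes cannot be told apart there.

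Both calls depended on single HFD libraries. The adjusted p of Cd163 was 0.0701 without HFD 1 and 0.079 without HFD 3. Folr2 lost its call when any of 4 libraries was left out, with an adjusted p of 0.127 for HFD 1, 0.146 for HFD 3, 0.0991 for NC 2 and 0.0797 for NC 4. Leaving out HFD 2 moved its log2 change to -3.72. Without a filter on low counts neither gene passed, at 0.0575 and 0.0855.

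A further 4 genes were lower in every HFD library than in every NC library without passing the test. Mrc1 (chr2:14229392-14332057), the mannose receptor, read 13.4, 25.6 and 10 CPM in HFD livers and 65.1, 68 and 45.2 CPM in NC livers, a log2 change of -1.86 (SE 0.63, adjusted p = 0.0601). Clec4f (chr6:83644542-83656187) read 31.1, 57.7 and 34.5 CPM in HFD livers and 114, 106 and 69.9 CPM in NC livers, with a change of -1.24 (SE 0.41, adjusted p = 0.0571). HFD 2 was the nearest of the HFD libraries to the NC range in both. Csf1r read 21, 33.1 and 17.4 CPM in HFD livers against 64.2, 66.2 and 33.6 CPM in NC livers, with NC 5 only just above HFD 2 and a change of -1.20 (SE 0.47, adjusted p = 0.091). Of the length of Csf1r, 15.1% is shared with Hmgxb3 on the opposite strand, with the same limit as for Folr2. Vsig4, at 11, 21.3 and 10.1 CPM in HFD livers against 31.8, 31.6 and 22.9 CPM in NC livers, had a change of -1.03 (SE 0.45, adjusted p = 0.125). At an unadjusted p under 0.05, 6 of the 10 genes passed, against 34.7% of all genes. DESeq2 called 5, the same 2 genes and Clec4f, Csf1r and Mrc1, and 9.84% of all its tested genes were called lower. These 3 also fell by edgeR when HFD+RE 3 (adjusted p between 0.0187 and 0.0267), HFD+RE 5 (0.0216 to 0.0392) or HFD+AE 3 and HFD+RE 3 together (0.00681 to 0.0453) were left out of the estimate of the spread, and Mrc1 did so without HFD+AE 3 alone (0.0434). In those 4 settings 11.1%, 7.08%, 16% and 9.68% of all tested genes fell.

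The remaining 4 genes overlapped between the groups, and in Cd5l, Adgre1 and Timd4 only HFD 2 reached the NC range. Cd5l, the secreted macrophage protein, read 16.2, 60.2 and 14.5 CPM in HFD livers and 95.6, 88.4 and 52.2 CPM in NC livers, a log2 change of -1.38 (SE 0.68, adjusted p = 0.164). Adgre1 read 2.45, 13.2 and 2.19 CPM in HFD livers and 20.4, 21 and 10.5 CPM in NC livers, with a change of -1.55 (SE 0.85, adjusted p = 0.209). Timd4, the receptor that marks long-lived resident cells, read 1.23, 6.05 and 2.09 CPM in HFD livers and 6.78, 7.50 and 4.51 CPM in NC livers, with a change of -1.01 (SE 0.61, adjusted p = 0.25). HFD 2 was the highest HFD library in 10 of 10 genes, so leaving it out could only lower the HFD averages. Without it 7 genes fell, at adjusted p between 0.0145 and 0.0498, the 5 added ones being Clec4f, Timd4, Cd5l, Adgre1 and Mrc1, while 9.48% of all tested genes fell. The change of Cd5l was then -2.36, that of Adgre1 -2.90 and that of Timd4 -1.91. None of the 10 genes passed without HFD 1 or without HFD 3. Without HFD 3 the changes of Cd5l and Adgre1 were -1.04 and -1.14, and without HFD 1 that of Timd4 was -0.62.

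Marco (chr1:120474538-120505024), the class A scavenger receptor, was the 1 gene with a positive change. It read 5.04, 24.4 and 8.52 CPM in HFD 1, 2 and 3 and 4.96, 7.85 and 5.52 CPM in NC 2, 4 and 5, with overlapping groups and a log2 change of 1.05 (SE 0.73, adjusted p = 0.317). Without HFD 2 the change was 0.15.

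**Figure D1:**
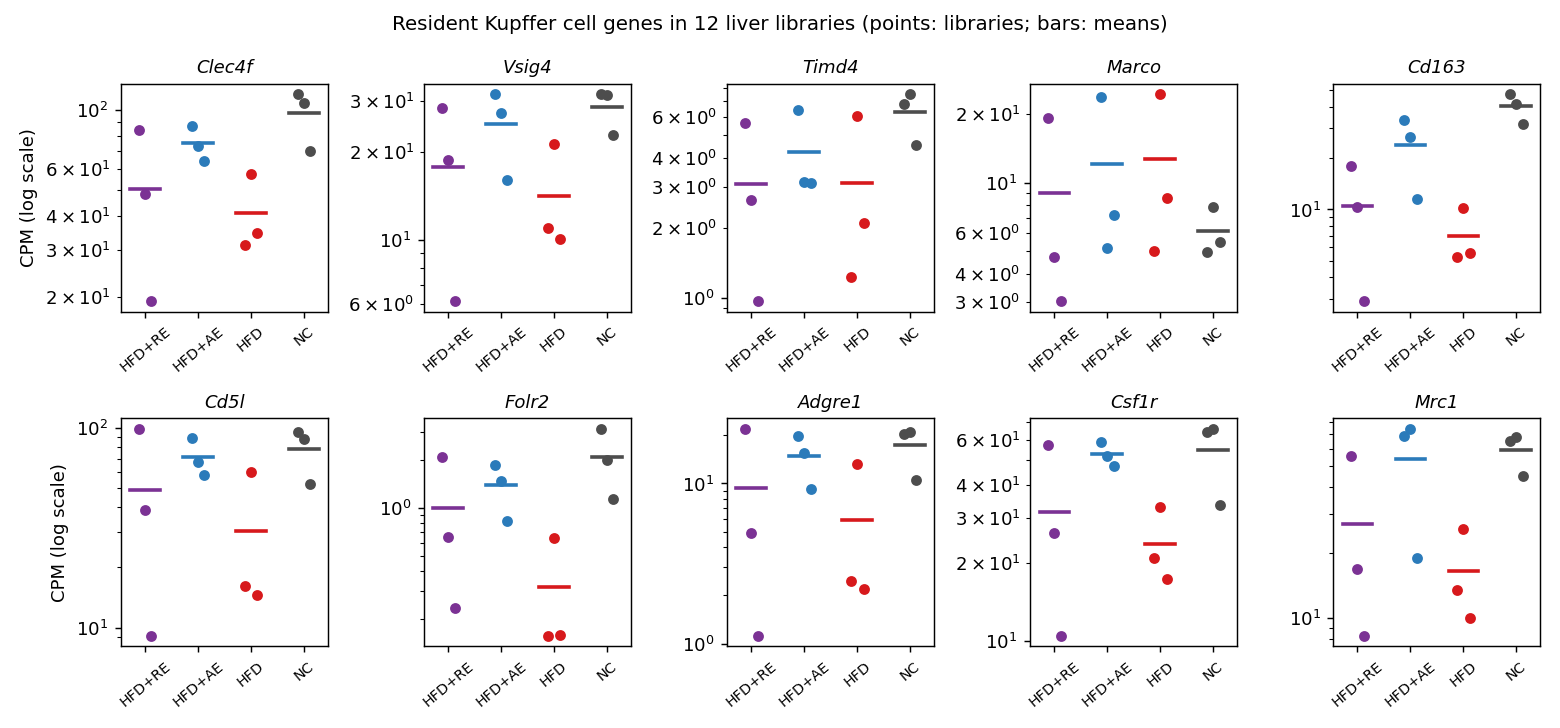
Level of each resident Kupffer cell gene in CPM on a log scale, by group; each point is 1 library and each bar the mean of the 3. HFD points lie below all NC points in 6 genes (Clec4f, Vsig4, Cd163, Folr2, Csf1r and Mrc1), while Marco in HFD 2 reaches 24.4 CPM.

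Other measures moved along with these genes, and their part in the result was not tested. The summed level of 12 markers of sinusoidal endothelial cells ran from 187 to 305 CPM in HFD livers, against 429 to 531 CPM in NC livers, and 4 of the 12 fell (Kdr, Cdh5, Gpr182 and Ptprb), with a median log2 change of -0.99. Of 7 tested hepatocyte markers, 4 fell, and of all tested genes 7.19% fell. The correlation across genes between a library's deviation from each gene's mean and gene length was -0.288 to -0.153 in HFD libraries, against 0.0831 to 0.205 in NC libraries. Mitochondrial ribosomal RNA took 1.76% to 3.26% of the counts in HFD libraries, against 0.708% to 0.924% in NC libraries. With each library's length trend removed, Cd163 changed by -2.45 (adjusted p = 0.0136) and Folr2 by -3.02 (adjusted p = 0.0292), and Clec4f passed as well, at -1.43 (adjusted p = 0.0474), while 7.54% of all genes fell. Markers of T and NK cells summed to 5.96 to 52.6 CPM in HFD livers, against 5.78 to 13.6 CPM in NC livers, and HFD 2, the HFD library highest in the resident genes, held the 5.96 CPM.

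**Figure D2:**
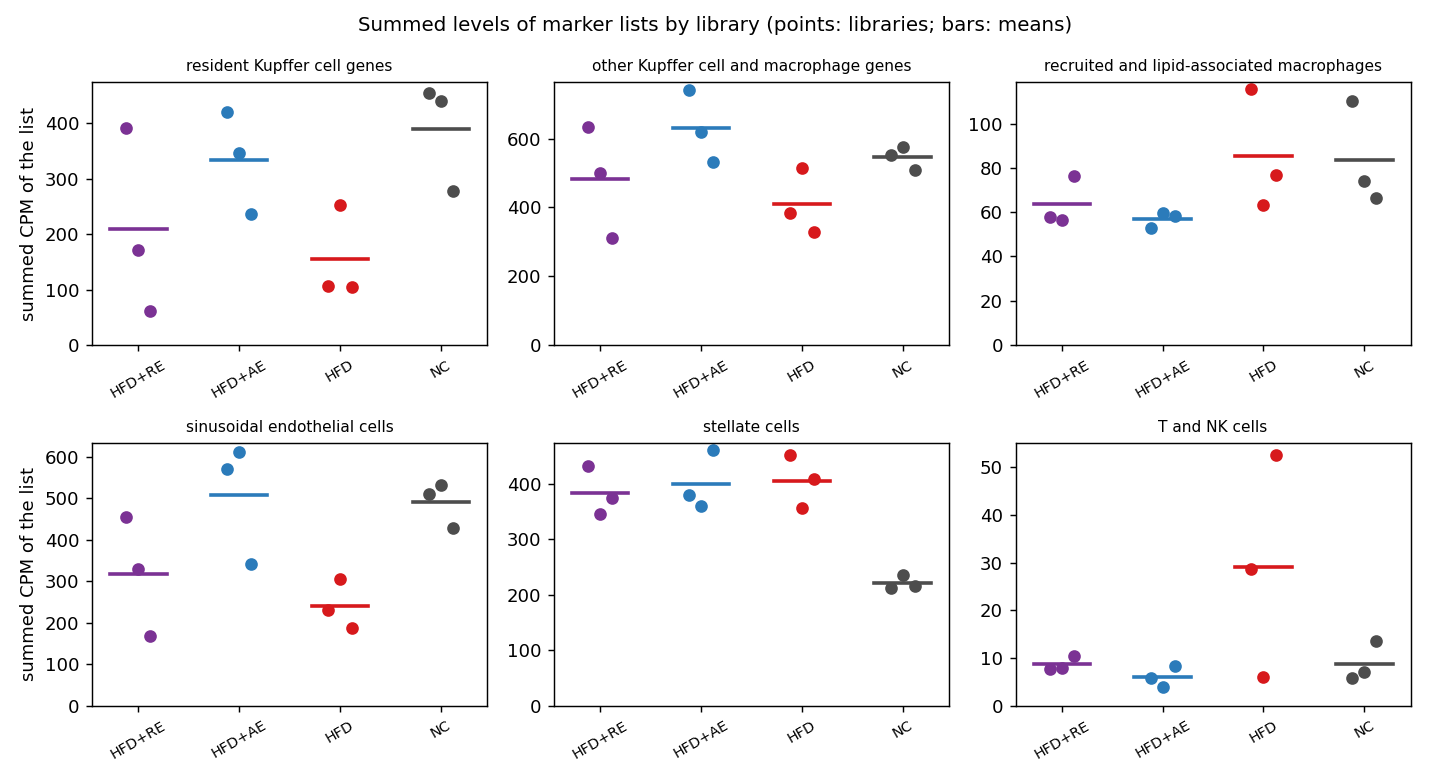
Summed CPM of 6 marker lists by group; each point is 1 library and each bar the mean of the 3. The resident list sums to 105 to 252 CPM in HFD livers and 277 to 454 CPM in NC livers, and the endothelial list is also lower in all 3 HFD libraries than in all 3 NC libraries.

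Levels were also set against Csf1r in the same library, as a description without a test, since a ratio inside a library shows unequal change of 2 genes and not which of them moved. Log2 CPM of Cd163 minus that of Csf1r ran from -1.99 to -1.65 in the HFD libraries, against -0.68 to -0.081 in the NC libraries, and the difference of the group means was -1.38. Folr2 differed by -1.57 and Mrc1 by -0.76 between HFD and NC libraries, again with every HFD library below every NC library. Marco went the other way, with every HFD library above every NC library and a difference of 1.94. Clec4f, Vsig4, Timd4, Cd5l and Adgre1 overlapped between the groups, and the mean differences of Clec4f, Vsig4 and Timd4 were -0.07, 0.09 and -0.10.

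These differences depended on the gene that the levels were set against. Set against Adgre1 in place of Csf1r, Cd163 and Mrc1 overlapped between HFD and NC libraries, with mean differences of -0.58 and 0.04. Timd4 was then higher in every HFD library than in every NC library, by 0.70, and Clec4f and Vsig4 overlapped at 0.73 and 0.89. Marco (2.74, every HFD library higher) and Folr2 (-0.77, every HFD library lower) kept their order with both genes.

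**Figure D3:**
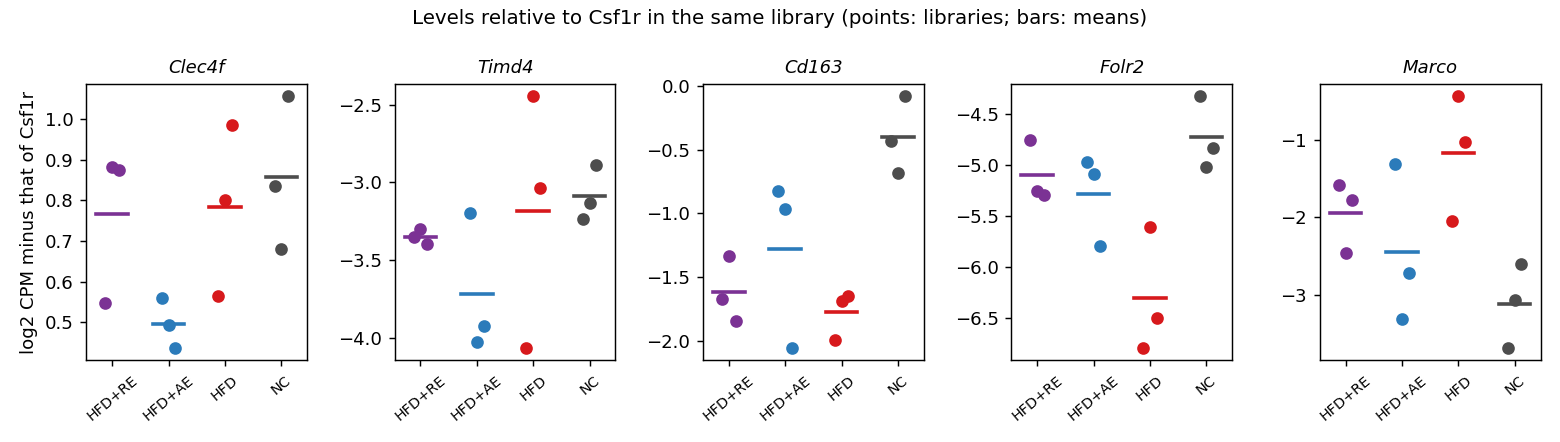
Log2 CPM of 5 genes minus log2 CPM of Csf1r in the same library, by group; each point is 1 library and each bar the mean of the 3. Relative to Csf1r, Cd163 in the exercised and the HFD libraries lies below all NC libraries, Marco in HFD lies above all NC libraries, and Clec4f and Timd4 overlap between HFD and NC; relative to Adgre1, Cd163 overlaps between HFD and NC.

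The next comparison asks how AE exercise on the diet moved the genes, relative to the same HFD libraries. None of the 10 passed the test, against 0.0492% of all tested genes called. At an unadjusted p under 0.05, 4 of the 10 passed, against 26.4% of all genes. DESeq2 called 2, Cd163 and Folr2, both higher, and called 5.15% of its tested genes higher. The log2 changes were positive in 9 of 10 genes, with a median of 1.19, against 0.0035 for all genes. In 4 of the 10 every HFD+AE library lay above every HFD library, against 15.8% of all genes.

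Cd163 read 33.4, 26.6 and 11.5 CPM in HFD+AE 1, 2 and 3, against 5.27, 10.2 and 5.54 CPM in HFD 1, 2 and 3, a log2 change of 1.77 (SE 0.53, adjusted p = 0.079). Folr2 read 1.85, 1.49 and 0.824 CPM in HFD+AE livers against 0.156, 0.645 and 0.157 CPM in HFD livers, a change of 2.16 (SE 0.76, adjusted p = 0.106). In both genes HFD+AE 3 was the lowest of its group and still above HFD 2. Csf1r read 59.1, 51.9 and 47.6 CPM in HFD+AE livers and 21, 33.1 and 17.4 CPM in HFD livers, a change of 1.15 (SE 0.46, adjusted p = 0.145). Clec4f read 87, 73.1 and 64.5 CPM in HFD+AE livers and 31.1, 57.7 and 34.5 CPM in HFD livers, a change of 0.87 (SE 0.41, adjusted p = 0.196). These 4 genes are those whose groups did not overlap.

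Mrc1 read 68.6, 74.4 and 18.9 CPM in HFD+AE 1, 2 and 3, so HFD+AE 3 lay inside the HFD range of 10 to 25.6 CPM, and the log2 change was 1.72 (SE 0.63, adjusted p = 0.116). Vsig4, Cd5l, Adgre1 and Timd4 had changes of 0.83, 1.24, 1.33 and 0.45, at adjusted p between 0.255 and 0.663, and overlapped. Without HFD 2 these changes were 1.25, 2.22, 2.68 and 1.35. Other omissions made them smaller. Without HFD+AE 1 the changes of Vsig4 and Timd4 were 0.62 and 0.017, and without HFD 3 those of Cd5l and Adgre1 were 0.90 and 0.93. Marco averaged 12.1 ± 10.2 CPM in HFD+AE livers and 12.6 ± 10.3 CPM in HFD livers (SD, n = 3 each), and the change was -0.065 (SE 0.71, adjusted p = 0.964). HFD+AE 1 was the highest library of its group in 9 of 10 genes and HFD+AE 3 the lowest in 9.

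Single libraries decided whether any of these genes passed. Without HFD 2, Folr2 passed (3.14, adjusted p = 0.0444), while 4.83% of all genes rose. Without HFD 3 the change of Folr2 was 1.81 and it did not pass. Without HFD+RE 3, which enters the estimate of the spread, Cd163 passed at 0.0454 and Folr2 at 0.0414, while 4.73% of all genes rose. Without HFD+AE 3 and HFD+RE 3 together, Cd163, Folr2 and Mrc1 rose, with changes of 2.11, 2.44 and 2.14 and adjusted p of 0.0198, 0.0232 and 0.0103, and 11.1% of all tested genes rose in that setting. The 12 endothelial markers had positive changes with a median of 1.16, and their summed level was 342 to 611 CPM in HFD+AE livers, against 187 to 305 CPM in HFD livers. Mitochondrial ribosomal RNA took 0.771% to 0.867% of the counts in HFD+AE libraries, against 1.76% to 3.26% in HFD libraries. The part of both measures was not tested.

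HFD+RE livers were compared with the same HFD libraries. None of the 10 genes passed, against 0.0109% of all tested genes. At an unadjusted p under 0.05, 1 passed (Folr2), against 8.77% of all genes, and DESeq2 called 0 of the 10 and 0.935% of all its tested genes. The log2 changes were positive in 8 of 10, with a median of 0.49, against 0.043 for all genes, and all 10 genes overlapped between the groups, while 14.1% of all genes did not. Folr2 read 2.10, 0.654 and 0.233 CPM in HFD+RE 3, 4 and 5, against 0.156, 0.645 and 0.157 CPM in HFD 1, 2 and 3, a change of 1.67 (SE 0.76, adjusted p = 0.554) that was 2.65 without HFD 2. Mrc1, Cd5l, Adgre1 and Cd163 had changes of 0.72, 0.69, 0.66 and 0.58, and Csf1r, Vsig4, Clec4f, Timd4 and Marco of 0.40, 0.33, 0.30, -0.018 and -0.49, at adjusted p of 0.755 or more.

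**Figure D4:**
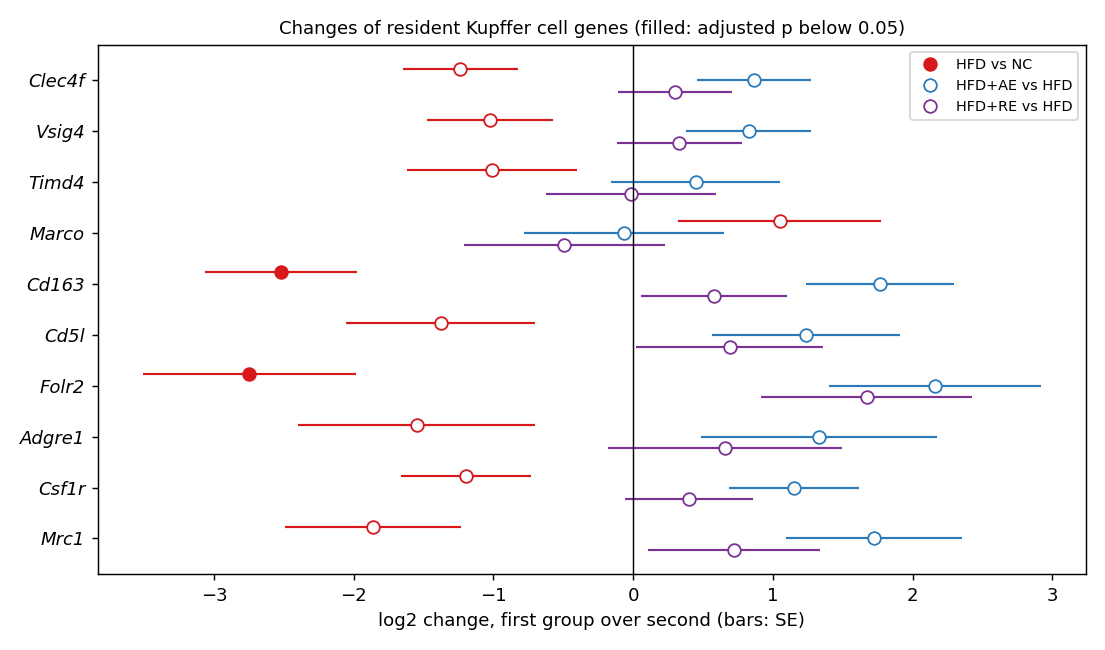
Log2 change of each gene in 3 comparisons, the first named group over the second, with its standard error as a bar; filled points passed at an adjusted p below 0.05. Only Cd163 and Folr2 in HFD over NC are filled, and 9 of the 10 points of HFD+AE over HFD lie to the right of 0; the comparisons share the HFD libraries.

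The HFD+RE group held the widest spread. HFD+RE 3 was the highest and HFD+RE 5 the lowest of its group in 10 of 10 genes, and the ratio of highest to lowest library had a median of 6.29 over the genes, against 2.09 in HFD+AE, 3.35 in HFD and 1.65 in NC livers. Adgre1 ran widest, at 22, 4.90 and 1.11 CPM in HFD+RE 3, 4 and 5, a ratio of 19.7. Cd5l read 99, 38.6 and 9.09 CPM there, a ratio of 10.9. HFD+RE 5 was the lowest of all 12 libraries in 9 genes, and only Folr2 was lower elsewhere, in HFD 1. HFD+RE 3 was the highest of all 12 in Cd5l and Adgre1.

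Because HFD+RE 3 held the high values, its removal changed signs. Without it 7 of the 8 positive changes relative to HFD were negative, between -0.98 in Adgre1 and -0.074 in Cd163, and Folr2 was the 1 gene that kept a positive one, at 0.51. No gene passed in any of these settings. The correlation with gene length was 0.225 in HFD+RE 3 and -0.287 and -0.307 in HFD+RE 4 and 5, and the summed endothelial markers were 454, 328 and 167 CPM in the same order. Mitochondrial ribosomal RNA took 0.685%, 1.11% and 1.71% of the counts in HFD+RE 3, 4 and 5. Their part in the spread was not tested.

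**Figure D5:**
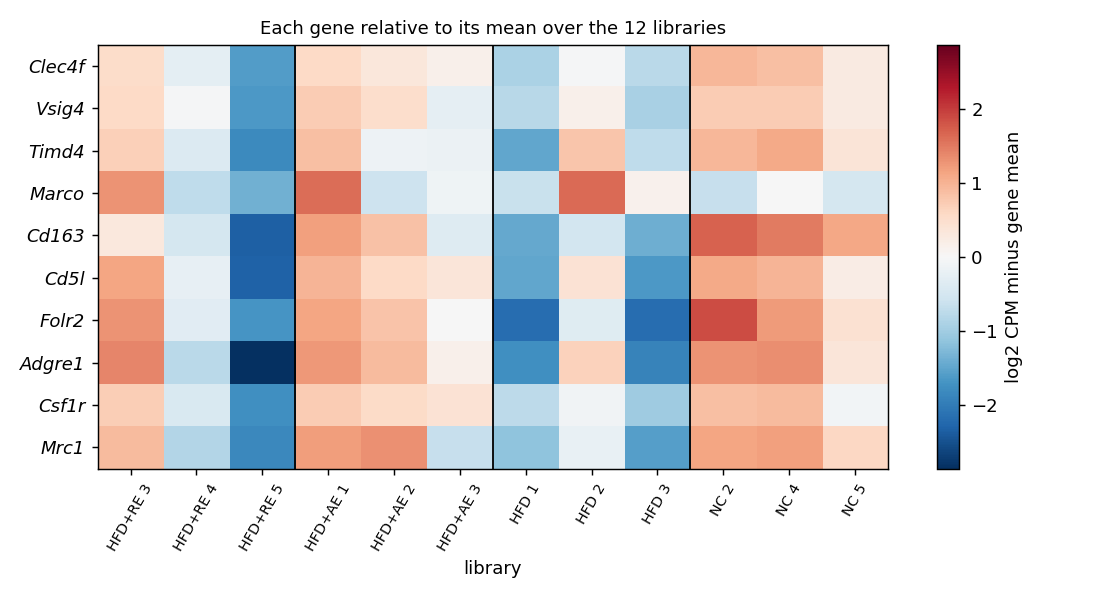
Log2 CPM of each gene minus its mean over the 12 libraries, with libraries in columns and black lines between groups; red is above the gene's mean and blue below. HFD+RE 5 is below the mean in all 10 genes, HFD 1 is below it in 10 and HFD 3 in 9, and HFD+RE 3 and HFD+AE 1 are above it in all 10.

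Set directly against HFD+AE, HFD+RE livers had negative changes in 10 of 10 genes, with a median of -0.56, against 0.014 for all genes. Every one of the 10 overlapped, while 11.3% of all genes did not. None passed by edgeR, against 0% of all tested genes called; 1 passed at an unadjusted p under 0.05 (Cd163), against 8.02% of all genes, and DESeq2 called 0 of the 10 and 0.134% of all its tested genes. Cd163 read 18.1, 10.4 and 2.90 CPM in HFD+RE 3, 4 and 5, against 33.4, 26.6 and 11.5 CPM in HFD+AE 1, 2 and 3, a change of -1.19 (SE 0.52, adjusted p = 0.606) that was -1.84 without HFD+RE 3 and -0.74 without HFD+RE 5. Without HFD+AE 3 and HFD+RE 3 together, Cd163, Csf1r and Mrc1 fell, with changes of -2.18, -1.60 and -2.52, at adjusted p of 0.0267, 0.0476 and 0.00799, and 10.1% of all tested genes fell in that setting. Those 2 libraries lay at opposite ends of their groups, HFD+AE 3 low and HFD+RE 3 high.

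Each exercise group was also set against NC, which shares its libraries with the diet comparison. In HFD+AE livers none of the 10 genes passed, against 1.38% of all tested genes, with 0 at an unadjusted p under 0.05, against 14% of all genes, and 0 by DESeq2, against 4.4%. The median change was -0.21, against -0.0083 for all genes. The largest negative change was that of Cd163, with 33.4, 26.6 and 11.5 CPM in HFD+AE livers against 47.6, 41.3 and 31.8 CPM in NC livers (-0.76, SE 0.52, adjusted p = 0.57), and it was -0.43 without HFD+AE 3. Marco had the 1 positive change, 0.98 (SE 0.72, adjusted p = 0.602), and it was 0.026 without HFD+AE 1. In HFD+RE livers none passed, against 3.96% of all tested genes. At an unadjusted p under 0.05, 2 passed (Cd163 and Clec4f), against 24.5% of all genes, and DESeq2 called 1, Cd163, with 4.53% of its tested genes called lower. The median change was -0.91, against 0.017 for all genes. Cd163 was the 1 gene lower in every HFD+RE library than in every NC library, at 10.5 ± 7.58 CPM in HFD+RE livers and 40.2 ± 7.97 CPM in NC livers (SD, n = 3 each), a change of -1.94 (SE 0.53, adjusted p = 0.0581); 12.4% of all genes had that order. It passed without HFD+AE 3 (adjusted p = 0.0422), where 2.82% of all tested genes fell. Without HFD+RE 3 it fell together with Clec4f, Folr2, Csf1r and Mrc1, at adjusted p between 0.0152 and 0.0359, and 9.51% of all tested genes fell. Leaving out any other single library gave no call of Cd163, at an adjusted p of up to 0.181. Its change was -1.49 without HFD+RE 5. Relative to Csf1r in the same library, Cd163 was lower in all HFD+AE, HFD+RE and HFD libraries than in all NC libraries, by mean differences of -0.88, -1.22 and -1.38. Relative to Adgre1 that order held in HFD+AE (-0.65), while HFD+RE (-0.55) and HFD (-0.58) overlapped with NC.

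The 10 genes varied together over the libraries, Marco the least closely. Pearson's r of log2 CPM over the 12 libraries had a median of 0.92 for the 45 pairs, and for deviations from the group means the median was 0.92 and the range 0.70 to 0.99. The points share library depth and composition, and the values are a description. Over the 12 libraries the r of Marco ran from 0.25 with Cd163 to 0.61 with Timd4. Every pair without Marco had an r of 0.84 or more. Ranked by mean r to the 10 genes over the 12 libraries, the nearest other genes were P2ry13 (0.90), Lilra5 (0.89), Siglec1 (0.89), Ptprm (0.89), Tlr7 (0.89), Slc11a1 (0.89), Cdh5 (0.89) and Fpr1 (0.89). Over deviations from the group means they were Ppp2r2a (0.93), Tmem26 (0.93), Aff1 (0.93), Fpr1 (0.92), Aadat (0.92), Siglec1 (0.92), Aoah (0.92) and Prr5l (0.92).

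Lists of related genes gave a background for the resident genes. Of 18 other Kupffer cell and macrophage genes, 1 fell in HFD relative to NC livers, Fcna, which encodes a ficolin (-1.04, SE 0.21, adjusted p = 0.0111). The list had a median log2 change of -0.55, and 7.19% of all tested genes fell. Mertk, an engulfment receptor, had -0.73 (adjusted p = 0.0659), and Aif1 had 0.74 (adjusted p = 0.0714). Of 7 ligands of the niche, those of smallest p in HFD relative to NC livers were Gdf2 (0.69, adjusted p = 0.0562), Dll4 (-0.91, adjusted p = 0.0817) and Il34 (0.92, adjusted p = 0.1). In the same list 2 rose in HFD+AE relative to NC livers, Bmp10 (1.14, adjusted p = 0.0358) and Gdf2 (1.10, adjusted p = 0.0365), both of which signal to Kupffer cells and endothelium. Of all tested genes 0.901% rose in that comparison.

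Of 14 markers of recruited and lipid-associated macrophages, 3 rose in HFD relative to NC livers, Ly6c2 (2.83, adjusted p = 0.018), Ccr2 (1.82, adjusted p = 0.0211) and Cx3cr1 (1.91, adjusted p = 0.0237), which mark monocytes and monocyte-derived cells. In the same list 2 fell, Fabp5 (-3.04, adjusted p = 0.0237) and Cd9 (-1.04, adjusted p = 0.0383), which encode a fatty-acid-binding protein and a tetraspanin. Of all tested genes 8.38% rose and 7.19% fell in that comparison. The list median was 1.11, against -1.31 for the resident genes, and no test of that difference was made. The summed level of the list overlapped, at 63.4 to 115 CPM in HFD livers and 66.3 to 110 CPM in NC livers. Libraries were uneven, with Ly6c2 at 2.94 ± 2.97 CPM in HFD livers and Fabp5 at 19.6 ± 15.5 CPM in NC livers (SD, n = 3 each). Relative to HFD livers, Ccr2 had -2.07 in HFD+AE livers (adjusted p = 0.0596) and -1.63 in HFD+RE livers (adjusted p = 0.304). Cd9 also fell in HFD+AE (-1.46, adjusted p = 0.0373) and HFD+RE livers (-1.20, adjusted p = 0.0458) relative to NC livers. Of all tested genes 0.481% and 1.28% fell in those 2 comparisons.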

How the data were processed

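The 10 genes and the marker lists were chosen with earlier results of these data known. The authors deposited 1 table of raw, unnormalized gene counts; genome build mm10 is given in the submitters' processing notes. Per the file headers, reads were counted with featureCounts 2.0.6, after fastp and HISAT2 2.2.1, with DESeq2 1.40.1 also listed, per the submitters' processing notes. Not given in the sources used here are the strand setting, the handling of multi-mapping reads and the annotation used. Counts sum a gene's exons, so isoforms are not told apart, and reads from overlapping genes on opposite strands can be confounded. No pair of libraries agreed within sampling noise (smallest chi-square per degree of freedom 75.9 over 14139 genes).

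The test was edgeR's (4.0.16, R 4.3.3) quasi-likelihood F-test with TMM scaling and edgeR's low-count filter, which left 18305 genes; the model held the 4 group means over all 12 libraries and no replicate block. Adjusted p-values are Benjamini-Hochberg over these genes, from this test unless DESeq2 (1.42.0) is named. Log2 levels used a prior count of 2. The SE of a log2 change is its absolute size divided by the square root of the test's F statistic, and was not fitted separately. All 10 genes are named whatever their values, with up to 3 genes of smallest p from each other list and the 8 genes of highest mean r; called genes beyond 3 in a list, and those left unnamed, were chosen after their values were seen. Of the motifs searched 1, and of the lists 1, are not reported here. Promoters came from RefSeq tables, and gene coordinates and lengths from the count table. GENCODE M21 gave GC content and shared 53292 gene names with the count table, 52905 at the same coordinates. Alternatives were another scaling, DESeq2, no filter, removal of length or length and GC trends, a replicate block, and leaving out libraries. Deviations of same-numbered libraries correlated at -0.50 to 0.16, and the numbers were not taken as pairs, though so few values cannot settle this. The test was checked on simulated counts in HFD vs NC. It recovered 27% of genes given a log2 change of 1 and 88% of those given 2. Of the calls there 9.45% were false. A gene that did not pass may therefore still have changed.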

Additional observations from a re-analysis of the deposited data

How the results depend on the processing

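The number of the 10 genes called in HFD vs NC was 2, and it was 5 by DESeq2, 0 without the low-count filter and 5 without HFD+AE 3 and HFD+RE 3; with 1 library left out it ran from 0 to 7. In HFD+AE vs HFD it was 2 by DESeq2 and 3 without those 2 libraries (0 to 2 with 1 library left out), in HFD+RE vs HFD+AE 3 without them, and in HFD+RE vs NC 1 by DESeq2, 1 with length and GC trends removed and 5 without them (0 to 5). Over all genes, the calls in HFD vs NC were 2851, with 6258 without both libraries and 411 to 4462 with 1 library left out. In HFD+AE vs HFD they were 9, with 2088 by DESeq2, 953 without the filter, 89 and 592 with length and with length and GC trends removed, 4253 without both libraries and 0 to 1930 with 1 left out. In HFD+RE vs HFD they were 2, with 185 by DESeq2, 43 without the filter, 8 with either trend correction, 5 without both libraries and 2 to 53. In HFD+RE vs HFD+AE they were 0 by edgeR, with 1468 at an unadjusted p under 0.05, 24 by DESeq2, 2 without the filter, 4170 without both libraries and 0 to 2. In HFD+AE vs NC they were 253, with 791 by DESeq2, 408 without the filter, 479 with length and GC trends removed and 44 to 373. In HFD+RE vs NC they were 724, with 1940 by DESeq2, 1143 with length and GC trends removed, 5989 without both libraries and 112 to 3983. The cause of these differences was not tested.

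With the library number as a replicate block, 325, 2, 1, 0, 1 and 15 genes were called in HFD vs NC, HFD+AE vs HFD, HFD+RE vs HFD, HFD+RE vs HFD+AE, HFD+AE vs NC and HFD+RE vs NC, and Cd163 and Folr2 kept their calls in HFD vs NC (adjusted p = 0.0311 and 0.0364); the block changed no other call among the 10 genes. Deviations of same-numbered libraries correlated at -0.12, 0.11 and 0.087 in HFD+AE and HFD, and at -0.089 and 0.16 in HFD+RE and NC. For number 3 they correlated at -0.27 in HFD+RE and HFD and at -0.50 in HFD+RE and HFD+AE. For number 2 the values were 0.048 in HFD and NC and 0.049 in HFD+AE and NC. So few values cannot settle whether the numbers mark pairs. In HFD vs NC the block took the change of Marco from 1.05 to 0.067. Every negative change there became larger, those of Adgre1, Mrc1 and Cd5l reaching -3.20, -3.01 and -2.49. The block turned the sign of Timd4 in HFD+RE vs HFD (0.55), of Vsig4, Timd4, Marco, Cd5l, Folr2 and Adgre1 in HFD+RE vs HFD+AE (0.027, 0.019, 0.33, 0.027, 0.45 and 0.11) and of Marco in HFD+AE vs NC (-0.26).

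Other changes of sign, all in genes that had not passed, were Marco in HFD+AE vs HFD with length, with length and GC trends removed and without both libraries (0.15, 0.18 and 0.21; -1.02 to 0.83 with 1 library left out), and Timd4 in HFD+RE vs HFD with the same trends removed (0.10 and 0.080; -0.79 to 0.88). Without both libraries, Clec4f, Vsig4, Cd163, Cd5l, Adgre1, Csf1r and Mrc1 in HFD+RE vs HFD became -0.27, -0.17, -0.069, -0.34, -0.97, -0.37 and -0.38. With 1 library left out they ran from -0.28 to 0.69, -0.18 to 0.76, -0.074 to 1.02, -0.34 to 1.68, -0.98 to 2.01, -0.37 to 0.82 and -0.39 to 1.21, and Marco from -1.71 to 0.41. In HFD+AE vs NC, Vsig4, Adgre1, Csf1r and Mrc1 became 0.044, 0.032, 0.026 and 0.27 without both libraries, with ranges of -0.40 to 0.035, -0.48 to 0.022, -0.30 to 0.11 and -0.44 to 0.26, and Cd5l ran from -0.36 to 0.027. Marco in HFD+RE vs NC became -0.65 (-0.66 to 0.97), and in HFD+RE vs HFD+AE ran from -1.64 to 0.53. Of 420 gene values under other settings 371 kept direction and side of the threshold, and of 720 with 1 library left out 670 did. Groups of 3, low counts of Folr2 and the spread of HFD+RE limit the precision.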

Other observations

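Other cell types in the same livers gave values beside those of the resident genes. In HFD relative to NC livers 6 of 10 B-cell and plasma-cell markers rose, with a median log2 change of 1.77. Of all tested genes 8.38% rose in that comparison, the share to set beside each count of rising markers below. The B-cell and plasma-cell markers summed to 45.5 to 172 CPM in HFD livers, against 29.2 to 46.9 CPM in NC livers. Of 11 stellate cell markers 5 rose, with a median of 0.66, and their summed level was 356 to 451 CPM in HFD livers and 212 to 236 CPM in NC livers. In HFD+AE and HFD+RE livers the stellate sums were 359 to 460 and 346 to 432 CPM, close to those of HFD livers. Of 12 T and NK cell markers 3 rose, and of 8 dendritic cell markers 1 rose (Ccr7). Their part in the levels of the resident genes was not tested.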
